A study of Mus musculus with 6 samples.

Results

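Wnt signalling was examined at the transcript level in the wound tissues of db/db mice, a diabetic mouse line, through 50 genes chosen by name: 15 Wnt ligands, 2 genes of ligand secretion, 10 Frizzled receptors, 5 co-receptors, 3 R-spondins, 5 secreted antagonists, 5 intracellular and nuclear genes and 5 feedback genes. All 50 were among the 33184 genes of the expression table, and 47 had a mean of at least 0.5 FPKM (read number divided by gene length and by the library's mapped total) over the 6 libraries and entered the tests, which covered 16005 genes. A full-thickness punch wound of 6 mm was made on the back of db/db mice on a C57BL/Ks background. Negative control siRNA (NC, 3 libraries) or SFRP2 siRNA (SFRP2-siRNA, 3 libraries), both chemically modified, was injected under the skin around the wound at day 1 after injury, and tissue was taken at day 4, although the sample titles carry day 3. All 6 libraries thus shared the diabetic genotype, the wound and an siRNA injection, and neither an uninjected wound nor a non-diabetic mouse was among them. Age and sex were not given for these libraries, nor whether each came from its own animal or which of the study's SFRP2 siRNA sequences each received. The p-values therefore measure the spread between these samples only.

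Wnt proteins are secreted lipid-modified ligands. They bind a Frizzled receptor together with a co-receptor, and in the canonical branch this keeps beta-catenin from being degraded, so that it enters the nucleus and acts with TCF and LEF factors on target genes. Some of these targets, such as Axin2, Nkd1, Rnf43 and Notum, dampen the pathway in return. Other branches act through Ror and Ryk receptors or through planar cell polarity proteins without beta-catenin. In skin the pathway is known for its part in hair follicle formation and in the follicle growth phase (anagen), and the matrix of a growing follicle is rich in Lef1. SFRP2, the target of the siRNA, is a secreted protein of the Frizzled-related family that binds Wnt ligands, and the study asked about wnt signalling downstream of it.

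The FPKM values implied totals of 42.9 M to 47.1 M reads a library. Sfrp2 itself had 11.6, 40.6 and 14.1 FPKM in NC 1, 2 and 3 and 50.6, 54.6 and 55.2 FPKM in those labelled SFRP2-siRNA 1, 2 and 3, a log2 fold change of 1.45 (SE 0.43, limma adjusted p = 0.518). The target transcript thus went against its label, and each direction here belongs to the libraries as labelled, not to a loss of Sfrp2 transcript. Protein is not part of these data. The summed FPKM of the 8 fibroblast markers was 899, 2033 and 1033 in NC 1, 2 and 3 and 2298, 2304 and 2221 in SFRP2-siRNA 1, 2 and 3. The part of tissue content in the Sfrp2 values was not tested. Markers of keratinocytes, fibroblasts, macrophages, endothelium, fat and skeletal muscle were all above 0 in every library. The library labelled SFRP2-siRNA 1 stood apart in its hair follicle markers, which are keratins and regulators of the growing follicle. Of the 18 listed, 17 were in the table, and their FPKM summed to 33.0 in that library, against 3160 to 6118 in the NC libraries and 5168 and 6826 in SFRP2-siRNA 3 and 2. None of the 17 was at 0, but all 17 lay under 0.5 times the lowest of the other libraries. Calls and medians of the members, and the values that depend on this library, are therefore given with and without it.

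Among the ligands, 6 carried most of the signal. Wnt4, Wnt5a, Wnt10a, Wnt11, Wnt10b and Wnt9a together made up 70.3% to 76.4% of the summed Wnt FPKM of a library. Wnt4, a ligand made by epidermis among other tissues, was the most abundant in every library, with 9.87, 5.82 and 12.8 FPKM in NC and 9.16, 9.34 and 11.3 FPKM in SFRP2-siRNA. Its share of the ligand sum ran from 16.9% to 25.96%. Wnt5a, the prototype of the ligands that act without beta-catenin, had 4.43, 5.01 and 6.04 FPKM in NC and 4.45, 6.58 and 6.49 FPKM in SFRP2-siRNA. Wnt10a, a ligand needed for teeth and skin appendages, had 5.65, 3.02 and 6.46 FPKM in NC and 6.36, 5.18 and 5.67 FPKM in SFRP2-siRNA. The groups of all 3 ligands overlapped. Of the other ligands, Wnt3 ranged from 2.06 to 4.61 FPKM, Wnt9a from 2 to 4.8 FPKM, Wnt7b from 1.38 to 2.58 FPKM, Wnt6 from 0.662 to 2.74 FPKM and Wnt3a from 0.58 to 1.81 FPKM, all with overlapping groups. The low end was held by Wnt2b and Wnt16, with means of 0.626 and 0.533 FPKM over the libraries, and by Wnt7a at 0.0134 to 0.0588 FPKM, which is 2 to 8 reads. Summed over the 15 ligands, the values were 41.6, 34.4 and 57.1 FPKM in NC and 35.3, 50.9 and 62.1 FPKM in SFRP2-siRNA, so the sums interleaved.

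**Figure D1:**
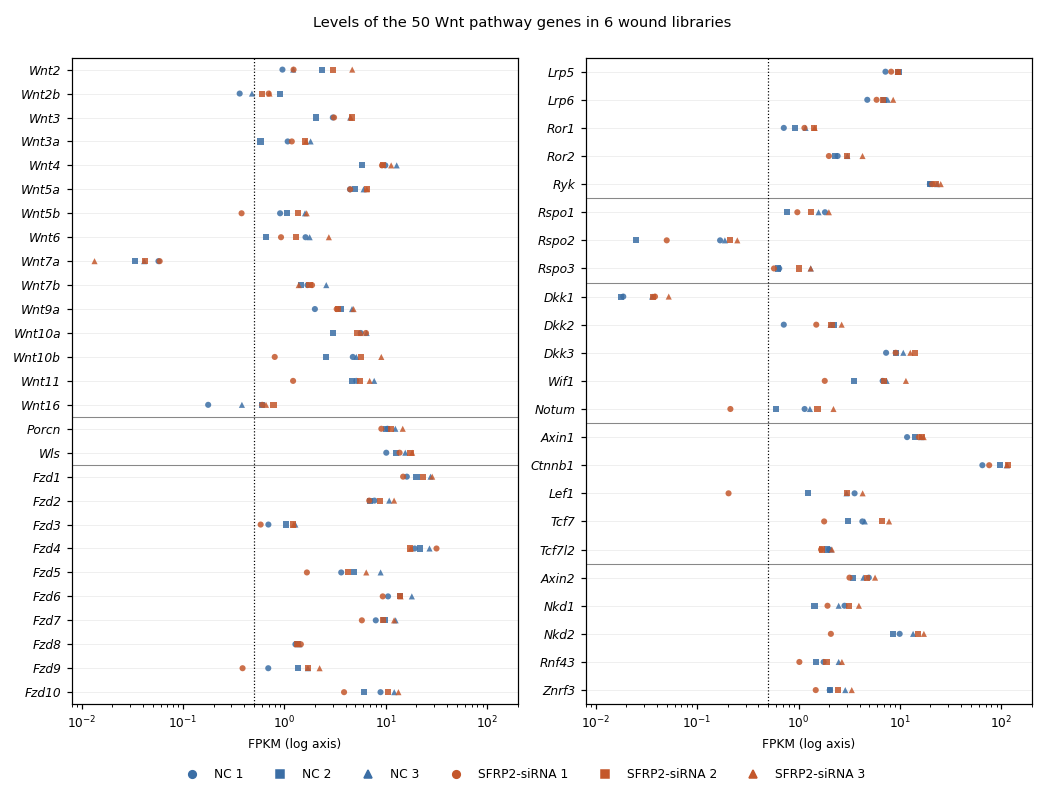
Level of each of the 50 genes in each library, in FPKM on a log axis, grouped by role, with 1 point per library and the groups in different colours. Ctnnb1 sits highest at 65.1 to 116 FPKM and Wnt7a, Dkk1 and Rspo2 lowest, and among the 47 tested genes the points of both groups overlap for all but Wnt16.

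Both secretion genes were well expressed. Porcn, the enzyme that attaches the lipid to Wnt proteins, had 10.4, 10.1 and 12.4 FPKM in NC and 9.03, 11.3 and 14.7 FPKM in SFRP2-siRNA. Wls, the carrier that brings Wnt proteins to the cell surface, had 10.1, 12.7 and 15.5 FPKM in NC and 13.7, 17.5 and 18.2 FPKM in SFRP2-siRNA. The Wls groups overlapped through SFRP2-siRNA 1 and NC 3, and the log2 fold change was 0.35 (SE 0.19, limma unadjusted p = 0.114) with all libraries and 0.47 without SFRP2-siRNA 1.

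The Frizzled receptors were dominated by 4 members. Fzd4, Fzd1, Fzd6 and Fzd7 made up 66.4% to 80.6% of the Frizzled sum, and Fzd10 and Fzd2 brought this to 89.1% to 94.6%. Fzd1 had 16.1, 20.1 and 27.6 FPKM in NC and 14.8, 23.1 and 28.7 FPKM in SFRP2-siRNA. Fzd4, a receptor known for its role in blood vessels, had 19.2, 21.5 and 26.95 FPKM in NC and 31.6, 17.2 and 17.7 FPKM in SFRP2-siRNA, so its treated libraries lay on both sides of the NC values. The highest Fzd4 value was in SFRP2-siRNA 1, where it made up 41.4% of the Frizzled sum, against 16.2% to 25.1% elsewhere. The summed FPKM of the 5 endothelial markers was also highest there, at 80.4 against 46.3 to 73.1 in the other libraries. So were the sums of the keratinocyte, macrophage and adipocyte markers. The dermal papilla sum was highest there too, at 51.4 FPKM, but 2 of the 3 tested papilla markers were lowest in that library. The part of these cell types in the Fzd4 value was not tested. Fzd6 ranged from 9.32 to 18 FPKM, Fzd7 from 5.8 to 12.5 FPKM, Fzd2 from 6.86 to 12.1 FPKM, Fzd10 from 3.87 to 13.3 FPKM, Fzd9 from 0.386 to 2.22 FPKM and Fzd3 from 0.582 to 1.28 FPKM. Their groups overlapped. Fzd8 had the smallest error of all tested members, at 1.28, 1.35 and 1.40 FPKM in NC and 1.45, 1.34 and 1.34 FPKM in SFRP2-siRNA (log2 fold change SE 0.10).

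**Figure D2:**
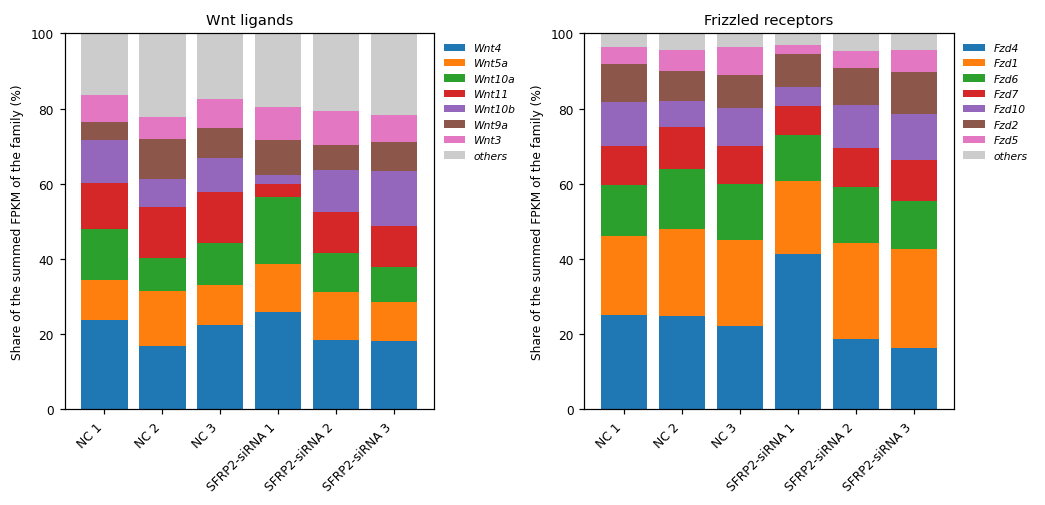
Share of the summed FPKM of the 15 Wnt ligands (left) and the 10 Frizzled receptors (right) held by each of the leading genes in each library, in percent, as stacked bars starting at 0 with the other genes pooled in grey. Wnt4 is the leading ligand in all 6 libraries, and SFRP2-siRNA 1 differs from the rest by a small Wnt10b share of 2.3% and a Fzd4 share of 41.4%.

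The co-receptors differed in how far they varied, with Ryk and Lrp5 steady and both Ror genes less so. Ryk, a receptor with an inactive kinase domain, had 19.8, 19.98 and 23.2 FPKM in NC and 20.8, 22.8 and 25.3 FPKM in SFRP2-siRNA. Lrp5 and Lrp6, the co-receptors of the beta-catenin branch, had means of 8.80 ± 1.39 and 6.45 ± 1.49 FPKM in NC and 9.13 ± 0.81 and 7.10 ± 1.37 FPKM in SFRP2-siRNA (SD, n = 3 each). Ror1, a receptor of Wnt5a, had 0.716, 0.930 and 1.17 FPKM in NC and 1.14, 1.42 and 1.44 FPKM in SFRP2-siRNA. It had the smallest unadjusted p of any member, 0.0787 (limma), with a log2 fold change of 0.27 (SE 0.13, 95% interval -0.04 to 0.58), and its groups overlapped. Without SFRP2-siRNA 1 the log2 fold change was 0.33. Ror2 ranged from 1.99 to 4.28 FPKM.

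R-spondins, which raise Wnt responses by keeping Frizzleds on the cell surface, were scarce. Rspo1 had 1.82, 0.771 and 1.58 FPKM in NC and 0.974, 1.32 and 1.99 FPKM in SFRP2-siRNA, and Rspo3 ranged from 0.573 to 1.32 FPKM. Rspo2, at 0.0251 to 0.249 FPKM (6 to 60 reads), had the highest mean of the 3 members below the filter, 0.149 FPKM, and Wnt16 had the lowest mean of those above it, 0.533 FPKM. Among the antagonists, Dkk1, which blocks Lrp5 and Lrp6, was nearly undetected at 2 to 6 reads per library and was not tested. Dkk3, a relative of Dkk1 with a less defined role, was the most abundant, at 7.31, 9.12 and 10.8 FPKM in NC and 9.09, 13.98 and 12.7 FPKM in SFRP2-siRNA. Wif1, which binds Wnt ligands directly, had 6.76, 3.49 and 7.39 FPKM in NC and 1.81, 6.93 and 11.5 FPKM in SFRP2-siRNA. The treated libraries held both the lowest and the highest Wif1 value. Dkk2 ranged from 0.716 to 2.66 FPKM. Notum, an enzyme that removes the lipid from Wnt proteins, had a mean of 1.02 ± 0.37 FPKM in NC and 1.32 ± 1.02 FPKM in SFRP2-siRNA (SD, n = 3 each).

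Ctnnb1, which encodes beta-catenin, was the most abundant member, with 65.1, 97.3 and 113 FPKM in NC and 76.0, 116 and 114 FPKM in SFRP2-siRNA. Axin1, a scaffold of the complex that degrades beta-catenin, had 11.8, 14.1 and 16.3 FPKM in NC and 15.4, 16.4 and 17.2 FPKM in SFRP2-siRNA. Tcf7l2, one of the nuclear partners of beta-catenin, stayed between 1.67 and 2.14 FPKM. The other nuclear partners, Lef1 and Tcf7, varied more than Tcf7l2 and are described with the libraries below.

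Axin2, the feedback gene most used as a readout of beta-catenin activity, had 4.94, 3.48 and 4.36 FPKM in NC and 3.18, 4.71 and 5.69 FPKM in SFRP2-siRNA. Its mean was 4.26 ± 0.73 FPKM in NC and 4.53 ± 1.26 FPKM in SFRP2-siRNA (SD, n = 3 for either). The groups overlapped, and the log2 fold change of 0.05 (SE 0.21, limma unadjusted p = 0.798) had a 95% interval of -0.44 to 0.54. Without SFRP2-siRNA 1 it was 0.24. Nkd1, an intracellular inhibitor, ranged from 1.44 to 3.94 FPKM. Rnf43 and Znrf3, ubiquitin ligases that remove Frizzleds, had 1.02 to 2.68 and 1.48 to 3.35 FPKM. All 3 had overlapping groups.

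Across all 50 genes no member passed the threshold between the groups. None of the 47 tested had an adjusted p under 0.05 by limma with Benjamini-Hochberg adjustment, and the adjusted p ran from 0.523 to 0.995, where 0 genes (0%) of all 16005 passed. None had an unadjusted p under 0.05 either, by limma or by voom on reads recovered from the FPKM values, while 9.58% of all tested genes did (6.72% higher and 2.86% lower under the SFRP2-siRNA label). The groups did not overlap for 1 member of 47 (2.13%), against 17.8% of all genes (13.9% higher and 3.92% lower). That member was Wnt16, a ligand of keratinocytes and bone, with 0.177, 0.602 and 0.380 FPKM in NC and 0.604, 0.780 and 0.657 FPKM in SFRP2-siRNA. The highest NC value and the lowest SFRP2-siRNA value nearly touched. Its log2 fold change was 0.29 (SE 0.14, 95% interval -0.05 to 0.62), with a limma unadjusted p of 0.0810, an adjusted p of 0.523 and an exact two-sided permutation p of 0.1, the smallest these group sizes allow. The groups overlapped once the libraries were scaled by median-of-ratios factors.

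**Figure D3:**
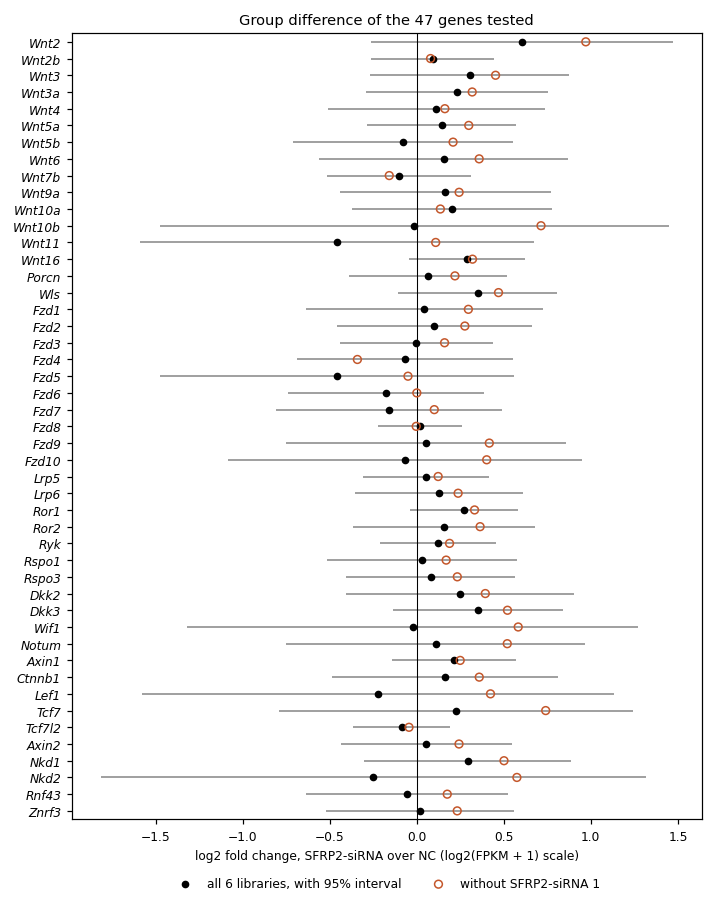
log2 fold change of each of the 47 tested members (libraries labelled SFRP2-siRNA minus NC, on the log2(FPKM + 1) scale) as a filled point with its 95% interval, by role, and without SFRP2-siRNA 1 as an open circle. Every interval crosses 0, the filled points run from -0.46 to 0.60, and the widest intervals belong to Nkd2, Wnt10b and Lef1.

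The log2 fold changes of the members ran from -0.46 for Wnt11 and Fzd5 to 0.60 for Wnt2. Without SFRP2-siRNA 1 these were 0.11 for Wnt11, -0.05 for Fzd5 and 0.97 for Wnt2. Wnt2, a ligand made mainly by connective tissue cells, had 0.955, 2.34 and 1.22 FPKM in NC and 1.23, 3.03 and 4.66 FPKM in SFRP2-siRNA (SE 0.36, 95% interval -0.26 to 1.47). For 38 of the 47 the 95% interval on the log2(FPKM + 1) scale lay within 1 on either side of 0. A larger change on that scale was outside the interval for these, while for the other 9 it was not. Changes of weakly expressed genes come out too small on this scale, so larger changes in FPKM stay possible for them. The log2 fold change of Wnt16 was 0.29 there, 0.78 with a pseudocount of 0.1 and 0.96 by voom. The SE ranged from 0.10 for Fzd8 to 0.66 for Nkd2, with a median of 0.24. Of the 47, 32 (68.1%) had a log2 fold change above 0, against 71.8% of all genes. The median was 0.08 for the members and 0.13 for all genes, and under median-of-ratios scaling it was -0.03 and 0.00. Scaling thus moved the median of all genes by more than 0.1, and it changed the members' split to 20 above and 27 below 0, where 51% of all genes were above. Relative to all genes the members' median was -0.05 as deposited and -0.04 after that scaling. By role, the median as deposited was 0.15 for ligands, 0.21 for secretion genes, 0.13 for co-receptors, 0.06 for R-spondins, 0.18 for antagonists, 0.16 for intracellular and nuclear genes, 0.02 for feedback genes and -0.03 for Frizzleds. Under median-of-ratios scaling 4 of these medians were below 0, at -0.01 for co-receptors, -0.03 for R-spondins, -0.09 for feedback genes and -0.16 for Frizzleds. Without SFRP2-siRNA 1 all were above 0, from 0.13 for Frizzleds and 0.24 for feedback genes to 0.52 for antagonists.

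Libraries of one label differed widely from each other. SFRP2-siRNA 1 had the lowest value of the 6 libraries for 23 of the 47 members (48.9%), against 14.3% of all genes. For all genes NC 1 was most often the lowest, at 46.8%, and for members it was so in 15 (31.9%). Mitochondrial transcripts made up 35.8% of the summed FPKM in NC 1, 22.2% and 17.4% in NC 2 and 3, and 16.6%, 11.8% and 13.8% in SFRP2-siRNA 1, 2 and 3, and their part in these counts and in the share of genes above 0 was not tested. After median-of-ratios scaling SFRP2-siRNA 1 was lowest for 29 members (61.7%), against 21.5% of all genes. These 23 members were spread unevenly over the roles, with 8 of 10 Frizzleds and 4 of 5 feedback genes but 3 of 14 ligands and 1 of 5 co-receptors. SFRP2-siRNA 3 had the highest value for 28 of the 47 members, against 29.5% of all genes. The summed level of the 5 feedback genes was lowest in SFRP2-siRNA 1 and highest in SFRP2-siRNA 3, at 21.5, 17.1 and 25.7 FPKM in NC and 9.70, 27.3 and 32.9 FPKM in SFRP2-siRNA.

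**Figure D4:**
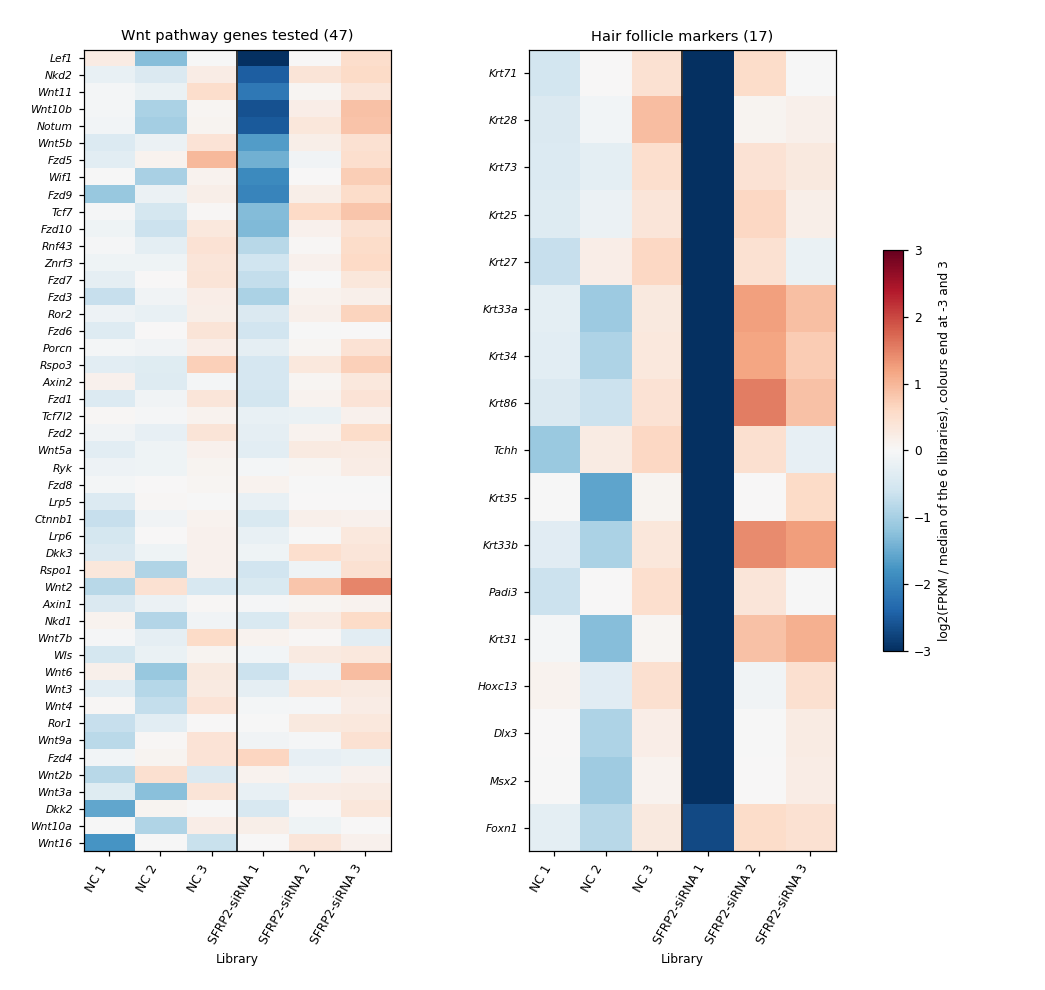
Levels of the 47 tested members (left) and of the 17 hair follicle markers (right) in each library. Colours show log2 of FPKM over the gene's median of the 6 libraries and are cut at both ends. Rows run by the ratio of SFRP2-siRNA 1 to the lowest other library. The column of SFRP2-siRNA 1 holds the lowest value for 23 members, Nkd2, Wnt10b, Lef1 and Wnt11 among them, while Fzd4 is highest there.

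In 7 of the 47 members (14.9%), against 3.66% of all genes, SFRP2-siRNA 1 lay under 0.5 times the lowest of the other libraries. Lef1 was the furthest, with 3.57, 1.23 and 2.98 FPKM in NC and 0.204, 3.02 and 4.29 FPKM in SFRP2-siRNA, a ratio of 0.166 that rested on 77 reads. Nkd2, an inhibitor related to Nkd1, had 9.94, 8.63 and 13.5 FPKM in NC and 2.09, 15.1 and 17.2 FPKM in SFRP2-siRNA, a ratio of 0.242. SFRP2-siRNA 3 held the highest value of both genes, and the label means were close, at 2.59 ± 1.22 and 2.503 ± 2.09 FPKM for Lef1 and 10.7 ± 2.52 and 11.5 ± 8.21 FPKM for Nkd2 (SD, n = 3 each).

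The ligands Wnt11, Wnt10b and Wnt5b followed. Wnt11, a ligand of the branches without beta-catenin, had 5.11, 4.67 and 7.68 FPKM in NC and 1.22, 5.59 and 6.92 FPKM in SFRP2-siRNA. Wnt10b, a ligand of the beta-catenin branch made in follicle epithelium, had 4.72, 2.55 and 5.11 FPKM in NC and 0.801, 5.68 and 9.02 FPKM in SFRP2-siRNA. Wnt5b had 0.905, 1.06 and 1.595 FPKM in NC and 0.377, 1.36 and 1.66 FPKM in SFRP2-siRNA. In each of the 3 genes, 1 library of the SFRP2-siRNA label lay below all others while the other two lay within or above the NC range. Notum had 1.15, 0.603 and 1.30 FPKM in NC and 0.213, 1.54 and 2.21 FPKM in SFRP2-siRNA, with 22 reads in SFRP2-siRNA 1. Fzd5 had 3.63, 4.85 and 8.88 FPKM in NC and 1.66, 4.23 and 6.41 FPKM in SFRP2-siRNA. Just outside this limit were Wif1 (ratio 0.520), Fzd9 (0.558), Tcf7 (0.586) and Fzd10 (0.630).

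The follicle markers were low in the same library. Krt25, a keratin of the inner root sheath, had 786, 910 and 1320 FPKM in NC and 6.69, 1562 and 1147 FPKM in SFRP2-siRNA. Krt35, a hair keratin, had 116, 38.7 and 123.3 FPKM in NC and 0.651, 118 and 173 FPKM in SFRP2-siRNA. Msx2, a regulator of the hair matrix, had 17.6, 8.52 and 19.3 FPKM in NC and 0.568, 18.1 and 20.8 FPKM in SFRP2-siRNA. In SFRP2-siRNA 1 the 17 follicle markers had a median ratio of 0.0166 to the lowest other library and a highest ratio of 0.273. The 4 melanocyte markers were also all under 0.5 times there, with sums of 4.23, 100.4 and 208 FPKM in SFRP2-siRNA and 24.7 to 120.3 FPKM in NC. Of the 8 keratinocyte markers, 1 was lowest in that library and 0 were under 0.5 times, and their sum was 6918 FPKM there against 3650 to 6630 in the other libraries. The part of the follicle content in the low Wnt values was not tested. In bulk tissue, fewer cells of a type and less RNA per cell cannot be told apart.

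The promoters of these genes are shown because Lef1 and Tcf7 bind DNA, and letters of their binding core can be looked for. RefSeq windows of 300 bases (build GRCm38.p6, 250 bases before the start and 50 after it) existed for 34 of the 50 members, 44 windows in all, and 16 members had no entry. The cores searched, on both strands, were the motif CTTTGAA, the motif CTTTGAT, the motif CTTTGTA and the motif CTTTGTT. These 4 share their first letters and differ in the last, so no match counted under more than 1 of them. At least 1 core was in 7 of the 44 windows (15.9%), against 16.9% of all 32851 windows, and in 3 of the 12 windows found for 6 of the 7 members that were low in SFRP2-siRNA 1 (Notum had no entry). Printed 5′ to 3′ on the gene's strand, with cores in capitals, are 5 of these 12 windows. They are, of 4 Lef1 windows, the first by position and the only one with a core, of 2 Wnt11 windows the one with a core, and the single windows of Wnt10b and Nkd2. The unprinted Lef1 and Wnt11 windows held no core, while an unprinted Wnt5b window held 1, at position -71 from its start site. The positions are Lef1 at chr3:131110047-131110346 and chr3:131156044-131156343 (plus strand), Wnt11 at chr7:98834862-98835161 (plus strand), Wnt10b at chr15:98778101-98778400 (minus strand) and Nkd2 at chr13:73847582-73847881 (minus strand).
Lef1, start 131110047: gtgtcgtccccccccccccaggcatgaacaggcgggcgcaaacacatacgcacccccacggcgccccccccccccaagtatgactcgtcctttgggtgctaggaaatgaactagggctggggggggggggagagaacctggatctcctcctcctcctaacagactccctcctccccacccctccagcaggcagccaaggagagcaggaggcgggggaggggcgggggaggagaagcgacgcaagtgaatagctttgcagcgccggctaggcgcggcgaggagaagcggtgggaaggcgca
Lef1, start 131156044: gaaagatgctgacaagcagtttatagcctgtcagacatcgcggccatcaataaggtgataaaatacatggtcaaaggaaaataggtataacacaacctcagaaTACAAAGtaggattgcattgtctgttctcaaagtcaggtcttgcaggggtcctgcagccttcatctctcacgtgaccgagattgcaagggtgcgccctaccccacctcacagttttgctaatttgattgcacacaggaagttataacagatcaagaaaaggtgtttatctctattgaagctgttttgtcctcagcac
Wnt11, start 98834862: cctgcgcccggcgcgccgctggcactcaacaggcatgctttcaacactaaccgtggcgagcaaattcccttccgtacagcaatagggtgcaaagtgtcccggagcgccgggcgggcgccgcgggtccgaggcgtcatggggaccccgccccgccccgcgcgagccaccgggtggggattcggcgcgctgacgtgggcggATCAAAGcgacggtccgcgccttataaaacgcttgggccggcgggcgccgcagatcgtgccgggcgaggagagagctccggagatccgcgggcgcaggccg
Wnt10b: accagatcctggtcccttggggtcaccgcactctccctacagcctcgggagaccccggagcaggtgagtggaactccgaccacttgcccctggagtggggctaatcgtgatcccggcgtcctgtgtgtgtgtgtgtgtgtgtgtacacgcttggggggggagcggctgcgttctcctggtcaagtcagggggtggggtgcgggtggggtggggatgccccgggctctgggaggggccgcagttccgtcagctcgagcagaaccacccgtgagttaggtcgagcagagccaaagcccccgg
Nkd2: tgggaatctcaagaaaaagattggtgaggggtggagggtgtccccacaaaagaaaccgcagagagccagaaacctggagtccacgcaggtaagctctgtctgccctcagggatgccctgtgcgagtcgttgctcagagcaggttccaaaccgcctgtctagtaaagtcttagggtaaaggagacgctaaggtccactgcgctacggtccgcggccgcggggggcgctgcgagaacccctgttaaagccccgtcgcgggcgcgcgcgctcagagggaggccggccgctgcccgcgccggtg
Positions are counted from the start site of each window. A core was at position -147 in the Lef1 window that begins at 131156044. The start site of that window lies downstream of the other Lef1 start sites, whose windows held no core. In the printed Wnt11 window a core was at -51. Both cores were on the opposite strand. The other printed windows held none of these motifs. A match is a description of the sequence and not of a bound site.

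Without SFRP2-siRNA 1 the members sat differently. Of the 47, 6 then had an unadjusted limma p under 0.05, all higher in the remaining SFRP2-siRNA libraries (12.8%, against 5.56% of all genes in that direction, 3.64% in the other and 9.2% in both), and none had an adjusted p under 0.05 (0% of all genes passed). They were Wnt2, Wnt10b, Dkk3, Notum, Tcf7 and Nkd2. In each of these SFRP2-siRNA 1 held the lowest value under its label, so leaving it out could only raise the log2 fold change. Tcf7, a nuclear partner of beta-catenin, had 4.26, 3.05 and 4.50 FPKM in NC and 1.79, 6.60 and 7.82 FPKM in SFRP2-siRNA. Its log2 fold change was 0.22 with all libraries and 0.74 without SFRP2-siRNA 1 (unadjusted p = 0.00599, adjusted p = 0.306, the smallest of the members). For Wnt2 the log2 fold change without that library was 0.97 (unadjusted p = 0.00808, adjusted p = 0.336), for Wnt10b 0.71 (adjusted p = 0.528), for Nkd2 0.58 (adjusted p = 0.499), for Dkk3 0.52 (adjusted p = 0.502) and for Notum 0.52 (adjusted p = 0.521).

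Groups that did not overlap were then found for 14 members in the higher direction (29.8%, against 23.7% of all genes) and for 1 in the lower, Fzd4 (against 7.97% of all genes). The 14 were Wnt2, Wnt3, Wnt5a, Wnt10b, Wnt16, Wls, Ror1, Dkk3, Notum, Axin1, Ctnnb1, Tcf7, Nkd1 and Nkd2. The members' median was 0.25 against 0.15 for all genes. With 2 libraries left under the label, and 1 library deciding these counts, they describe the remaining libraries only. Markers of some cell types leaned the same way with SFRP2-siRNA 1 included, and others did not. Of the 6 adipocyte, 17 hair follicle and 4 melanocyte markers, 0 had a log2 fold change above 0. In SFRP2-siRNA 1, 2 and 3 the follicle sums were 33.0, 6826 and 5168 FPKM, against 3160 to 6118 in NC. The melanocyte sums were 4.23, 100.4 and 208 FPKM, against 24.7 to 120.3. Both sums were thus below the NC values only in SFRP2-siRNA 1. The adipocyte sums were 2103, 1160 and 782 FPKM, against 1529 to 1999. The keratinocyte markers were split, with 4 of 8 above 0. Of 6 sebaceous gland markers 5 were above 0, but their sums were lower, at 644 to 2543 FPKM against 3029 to 6858 in NC. Of 8 fibroblast markers, 8 had a log2 fold change above 0 and 7 an unadjusted limma p under 0.05, with sums of 2221 to 2304 FPKM against 899 to 2033 in NC. Of 7 macrophage markers, 7 were above 0 and 5 had an unadjusted p under 0.05, with sums of 1415 to 1867 FPKM against 682 to 1260. Of 4 Schwann cell markers, 4 were above 0 and 3 had an unadjusted p under 0.05, with sums of 29.8 to 53.7 FPKM against 12.5 to 25.5. All 6 neutrophil and all 6 skeletal muscle markers were above 0 as well, with 0 at an unadjusted p under 0.05, but their sums overlapped between the groups. The neutrophil sums were 4598, 5522 and 980 FPKM in SFRP2-siRNA 1, 2 and 3 against 1135 to 1761 in NC. The muscle sums were 4133, 6085 and 11420 FPKM against 3101 to 6048. The part of these cell types in the values of the members was not tested.

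**Figure D5:**
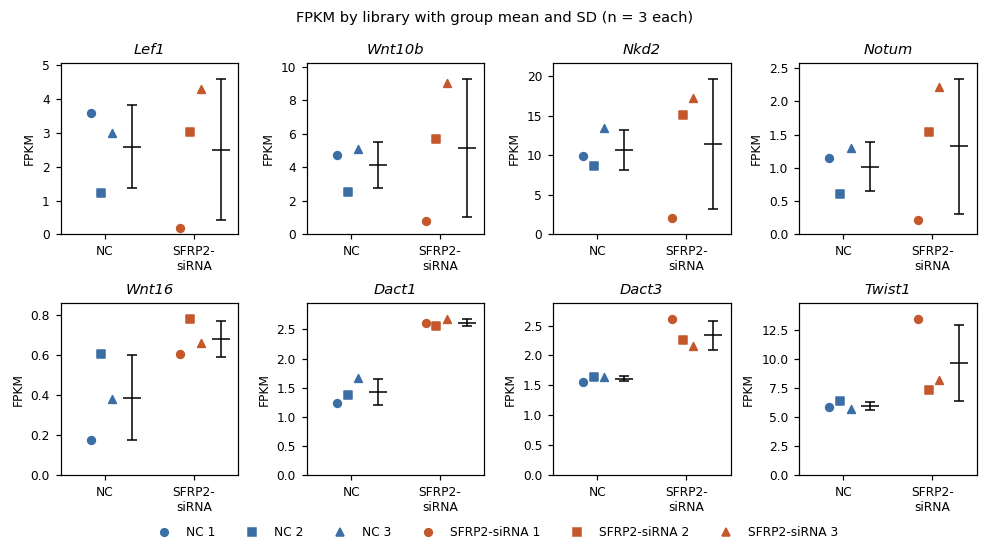
Level in each library, in FPKM, of selected members and of pathway genes outside the 50, with 1 point per library and, beside the points, the group mean with its SD as a bar (n = 3 each). SFRP2-siRNA 1 lies below every other library for Lef1, Nkd2, Wnt10b and Notum, while the groups are separate for Dact1, Dact3 and Twist1.

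Of the other genes of the pathway, 4 lists were examined, and no gene in them passed the adjusted threshold. The first held further ligands, R-spondins, their Lgr receptors and antagonists, 14 in the table and 9 tested, with 0 at an unadjusted limma p under 0.05. Rspo4, an R-spondin of nail and skin, had 1.49, 1.89 and 2.72 FPKM in NC and 0.0983, 1.08 and 1.89 FPKM in SFRP2-siRNA, and was again lowest in SFRP2-siRNA 1. Lgr6, a receptor for R-spondins, had 3.58, 2.37 and 2.10 FPKM in NC and 1.93, 1.36 and 1.86 FPKM in SFRP2-siRNA, groups that did not overlap (log2 fold change -0.42, limma unadjusted p = 0.0540). The second held 23 cytoplasmic and nuclear genes such as the Dvl, Gsk3 and Tle genes. All 23 were tested, 0 had an unadjusted p under 0.05, and 0 had groups that did not overlap.

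The third list held 12 target genes, 10 of them tested, with 1 at an unadjusted limma p under 0.05, where 9.58% of all genes were. This was Twist1, a transcription factor of mesenchymal cells, with 5.86, 6.37 and 5.68 FPKM in NC and 13.5, 7.38 and 8.19 FPKM in SFRP2-siRNA (log2 fold change 0.57, SE 0.22, unadjusted p = 0.0346, adjusted p = 0.518). Its largest value was in SFRP2-siRNA 1, and without that library the log2 fold change was 0.33 (unadjusted p = 0.0648). No other tested target, Ccnd1 and Myc included, had an unadjusted p under 0.05.

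The fourth list held 18 planar polarity and beta-catenin-independent genes, 17 of them tested, with 2 at an unadjusted limma p under 0.05, both higher under the SFRP2-siRNA label, where 6.72% of all genes were. Dact1, which binds Dishevelled, had 1.23, 1.38 and 1.66 FPKM in NC and 2.61, 2.55 and 2.68 FPKM in SFRP2-siRNA. Its log2 fold change was 0.58 (SE 0.12, 95% interval 0.31 to 0.86), with an unadjusted p of 0.00165, an adjusted p of 0.518 and an exact permutation p of 0.1. The SFRP2-siRNA values sat close together and above every NC value, and the log2 fold change was also 0.58 without SFRP2-siRNA 1 and 0.48 after median-of-ratios scaling. Dact3, its relative, had 1.56, 1.64 and 1.64 FPKM in NC and 2.61, 2.25 and 2.15 FPKM in SFRP2-siRNA, a log2 fold change of 0.35 (SE 0.11, unadjusted p = 0.0160, adjusted p = 0.518). After median-of-ratios scaling it was 0.25 (unadjusted p = 0.0526). Without SFRP2-siRNA 1 it was 0.29 (unadjusted p = 0.0708). The fibroblast, macrophage and Schwann cell markers given above also leaned this way, and their part in both genes was not tested.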

How the data were processed

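Transcripts were measured by RNA-seq in 6 libraries of db/db wound tissue, grouped by their titles. From paired-end mRNA libraries the authors deposited FPKM values for 33184 Ensembl genes. Per the submitters' processing notes the tools included HISAT2, Subread and featureCounts, without versions, and the genome build was not given in the sources used here. A gene name table gave symbols for 32582 IDs. Low FPKM values were whole multiples of the value of 1 read, and GENCODE vM21 gene lengths gave whole reads (within 0.05 read) for 97.0% of genes. Of the values of 1 to 20 reads, 64.6% were even. Mates may thus have been counted singly, in which case reads are not independent. The median read number behind 0.5 FPKM was 54.0.

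Values were analysed as log2(FPKM + 1), on which changes of weakly expressed genes come out too small. The filter kept genes averaging 0.5 FPKM or more, which were tested with limma 3.58.1 (lmFit, eBayes with an intensity trend, two-sided) in R 4.3.3, with Benjamini-Hochberg adjustment over all 16005 genes. A call needed an adjusted p under 0.05 and an absolute log2 fold change above 1, the thresholds the authors used with DESeq2, which was not run on FPKM. For single genes an exact permutation test (two-sided, over the 6 libraries) was added. The fit was tested on simulated data. No library pair in a group agreed within counting noise. The members, pathway lists and markers were chosen with earlier results of these data known. All 50 members were named, with full statistics for those with an unadjusted p under 0.05 or groups that did not overlap, and from each pathway list at most 3 genes with an unadjusted p under 0.05. Rspo4, Lgr6 and members given an interval beyond this rule, were named after their values were seen. Alternatives were no filter or one at 2 FPKM, a pseudocount of 0.1, median-of-ratios scaling, equal summed FPKM, the replicate number as a block, no intensity trend, voom on recovered reads, and leaving out each library.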

Additional observations from a re-analysis of the deposited data

How the results depend on the processing

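No member passed the adjusted threshold under any of the 14 alternatives. The count of members whose groups did not overlap was 1 of 47 with all libraries (2.13%, against 17.8% of all genes). With no filter on low values it was 2 of 50 (4%, against 12.5%). With a filter at 2 FPKM it was 0 of 31 (0%, against 18.5%). Under median-of-ratios scaling it was 0 of 47 (0%, against 13.2%), and with equal summed FPKM 2 of 47 (4.26%, against 17.4%). It ran from 1 to 15 when each library was left out, with 15 (31.9%, against 31.6% of all genes) without SFRP2-siRNA 1, 7 (14.9%, against 34.5%) without NC 3, 3 (6.38%, against 32.6%) without NC 2 and 2 (4.26%, against 27.8%) without SFRP2-siRNA 3. The count of members at an unadjusted p under 0.05 was 0 with all libraries and ran from 0 to 6 when each was left out, with 6 (12.8%, against 9.20% of all genes) without SFRP2-siRNA 1, 2 (4.26%, against 8.47%) without NC 3 and 1 (2.13%, against 12.3%) without NC 2. With the replicate block it was 3 (Dkk3, Fzd5 and Wls), 6.38% against 12.1% of all genes. Same-numbered libraries correlated at -0.05, -0.15 and 0.38 in their deviations, and NC 2 correlated best with SFRP2-siRNA 1 (0.32), so the numbers were not taken to pair the samples. Over all genes the 1533 at an unadjusted p under 0.05 ran from 887 (without NC 1) to 1970 when a library was left out, with 948 without SFRP2-siRNA 2. The members' median log2 fold change ran from -0.05 to 0.25. Of 46 members with no called direction, 35 had another sign in at least 1 fit, in 83 of 629 fits. The Sfrp2 log2 fold change ran from 1.12 to 1.98 and stayed above 0 under all 14.

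With 3 libraries a label and a median SE of 0.24, small changes of single members were not detectable. The 3 members with a mean under 0.5 FPKM rested on 2 to 60 reads per library, and a low level there is not shown to be absence. Mates that may have been counted as single reads, and an unknown number of animals, limit the precision further.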
